A study of Mus musculus with 6 samples.

Results

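The genes described here mark macrophages, and they were read in RNA from primary hepatocytes of alcohol-fed mice. They are 10 of the 25718 genes in the deposited table: Gpnmb, Mmp12, Trem2, Cd9, Spp1 and Lgals3, which are associated with lipid-laden macrophages, Cd68 and Adgre1, which mark macrophages in general, and Clec4f and Cd5l, which mark Kupffer cells, the resident macrophages of the liver. The genes were found by their symbols, and each symbol occurred once in the table. The 10 genes were chosen by their measured values in this same comparison, to set Kupffer markers beside genes of the Gpnmb, Mmp12 and Trem2 kind. Their levels and differences are therefore given as a description, with no test. Other genes of the same pathways and cell types, outside these 10, were tested.

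Primary hepatocytes were isolated from alcohol-fed wild type (WT) mice and from alcohol-fed S100a16KO+/- mice, with 3 libraries of each genotype. All mice were young adult males given the NIAAA model, a short period on an ethanol liquid diet that ends with 1 ethanol gavage, and no pair-fed library was analysed here. S100a16KO+/- mice carry 1 deleted S100a16 allele on a C57BL/6 background. The deletion was made with EIIa-Cre, which acts in the early embryo, so that macrophages of these mice carry it as well as hepatocytes. The labels name the same libraries S100A16 knockdown. Livers were digested with collagenase, and the hepatocytes were separated on Percoll, a density medium. Nothing in the labels says whether a library came from 1 mouse or from a pool, so the spread between libraries may be partly technical.

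Macrophages that take up large amounts of lipid and dying cells switch on a shared set of genes, among them the lipid receptor Trem2, the membrane glycoprotein Gpnmb, the tetraspanin Cd9 and the secreted proteins osteopontin (Spp1) and galectin-3 (Lgals3). Such cells are called lipid-associated macrophages and are known from fatty tissue and fatty liver. Kupffer cells line the liver sinusoids, express the lectin Clec4f and secrete Cd5l, and can be lost or replaced by monocyte-derived cells during liver injury. A hepatocyte preparation can carry some of these cells, and a bulk library does not tell fewer cells of a type from less RNA per cell.

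The libraries were dominated by hepatocyte RNA. Alb, which encodes serum albumin, stood at 88524 ± 4962 CPM (counts relative to library size, scaled between libraries by the TMM method) in WT and at 85458 ± 4767 CPM in S100a16KO+/- (SD, n = 3 in each, as for all later values). S100a16, the targeted gene, read 1001, 1056 and 1107 estimated counts in WT against 433, 390 and 366 in S100a16KO+/-. Estimated counts summed to between 67658095 and 71807834 per library. Low counts were piled up at 4, so that 1 sequenced fragment was worth about 4 counts. A gene with no fragment may still have had up to 3, or 12 counts. Where no library of a genotype exceeded 12 counts, the gene was treated as at this floor. The floor covers counting error only.

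Macrophage RNA was present in these hepatocyte preparations, and all 10 genes were read in every S100a16KO+/- library. The general macrophage marker Csf1r, the receptor for the growth factor that macrophages depend on, was read at 26.8 ± 3.88 CPM in WT and at 26.8 ± 2.59 CPM in S100a16KO+/-. The pan-leukocyte gene Ptprc was read at 6.10 ± 1.40 and 7.15 ± 0.673 CPM. All 10 genes stood far below the hepatocyte genes, and the Kupffer genes Clec4f and Cd5l were more abundant than any of the other 8.

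The upstream sequences of 5 of the genes are shown. They cover 4 genes whose levels did not overlap between genotypes and 1, Cd5l, whose levels did. Motifs of factors that act in macrophages can be read in all of them except that of Gpnmb. Cd9 and Lgals3, whose levels also did not overlap, are not shown. RefSeq promoters were matched for 9 of the 10 genes, with 11 start sites in all, and Adgre1 had no entry. Each line gives the 250 bases before 1 start site on GRCm38.p6, on the strand of the gene. Capitals mark matches, on either strand, to 3 motifs: CATGTG, the core of the M-box bound by MITF and TFE factors, TGANTCA, bound by AP-1, and GAGGAA, bound by PU.1, the factor that sets up the macrophage lineage. The Gpnmb window is chr6:49036268-49036517 on the plus strand, and the Mmp12 window is chr9:7347124-7347373 on the plus strand, before the second of its start sites. The Trem2 window is chr17:48346151-48346400 on the plus strand. The Cd68 window is chr11:69666171-69666420 on the minus strand, and the Cd5l window is chr3:87357631-87357880 on the plus strand.
Gpnmb: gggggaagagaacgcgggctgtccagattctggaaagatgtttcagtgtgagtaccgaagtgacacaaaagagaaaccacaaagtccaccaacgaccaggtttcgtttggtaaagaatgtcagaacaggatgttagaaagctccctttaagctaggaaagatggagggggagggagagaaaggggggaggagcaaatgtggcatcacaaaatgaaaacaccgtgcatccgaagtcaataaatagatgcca
Mmp12: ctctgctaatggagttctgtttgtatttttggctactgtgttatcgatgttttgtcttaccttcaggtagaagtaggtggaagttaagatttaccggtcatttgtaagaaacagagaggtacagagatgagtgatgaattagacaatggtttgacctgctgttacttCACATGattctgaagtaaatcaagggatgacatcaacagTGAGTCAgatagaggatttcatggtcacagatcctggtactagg
Trem2: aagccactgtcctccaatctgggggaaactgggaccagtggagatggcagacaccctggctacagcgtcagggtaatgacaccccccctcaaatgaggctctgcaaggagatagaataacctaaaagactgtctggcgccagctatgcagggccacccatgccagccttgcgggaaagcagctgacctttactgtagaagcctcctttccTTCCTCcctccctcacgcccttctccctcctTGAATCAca
Cd68: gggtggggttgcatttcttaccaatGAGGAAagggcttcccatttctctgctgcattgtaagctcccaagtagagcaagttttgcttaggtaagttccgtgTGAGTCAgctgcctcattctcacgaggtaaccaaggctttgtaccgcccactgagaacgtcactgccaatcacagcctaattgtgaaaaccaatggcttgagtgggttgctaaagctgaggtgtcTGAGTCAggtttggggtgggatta
Cd5l: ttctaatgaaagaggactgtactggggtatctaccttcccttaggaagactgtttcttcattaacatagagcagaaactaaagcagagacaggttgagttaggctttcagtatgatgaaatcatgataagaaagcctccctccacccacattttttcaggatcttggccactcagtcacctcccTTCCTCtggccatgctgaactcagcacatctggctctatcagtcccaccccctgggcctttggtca

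AP-1 matches were read upstream of Mmp12 (positions -44 to -38 from its second start site), Trem2 (-9 to -3) and Cd68 (-149 to -143 and -24 to -18). Of the 32851 RefSeq promoters of the same length, 6.75% held this motif. The M-box core was read upstream of Mmp12 at -83 to -78, before the same second start site, and of Cd9 at -38 to -33, against 12.3% of all promoters. The window before the first Mmp12 start site held neither the AP-1 motif nor the M-box core. PU.1 matches were read upstream of Mmp12 (before its first start site), Trem2, Spp1, Cd68 and Cd5l, against 23.3% of all promoters. TATAAA was read upstream of Spp1 only, at -211 to -206, and 12.4% of promoters held it. None of these motifs, nor CACGTG (6.02% of promoters), was read in the windows of Gpnmb, Lgals3 and Clec4f. A match is a run of letters and not a shown binding site, and its absence from these windows says nothing about other sequence.

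In the S100a16KO+/- libraries, the lipid-associated genes Gpnmb, Mmp12 and Trem2 were read at several times their WT level, Cd9, Lgals3 and Cd68 were moderately higher, and Spp1, Adgre1, Clec4f and Cd5l overlapped between genotypes. The values of the 6 genes without overlap all lay higher in S100a16KO+/-. For reference, 19.2% of the 15957 genes that passed the filter on low counts were higher in every S100a16KO+/- library than in every WT library, and 18.6% were lower in every one. All 10 genes passed that filter. Since the genes were chosen on these values, the count of 6 is a description of the choice.

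**Figure D1:**
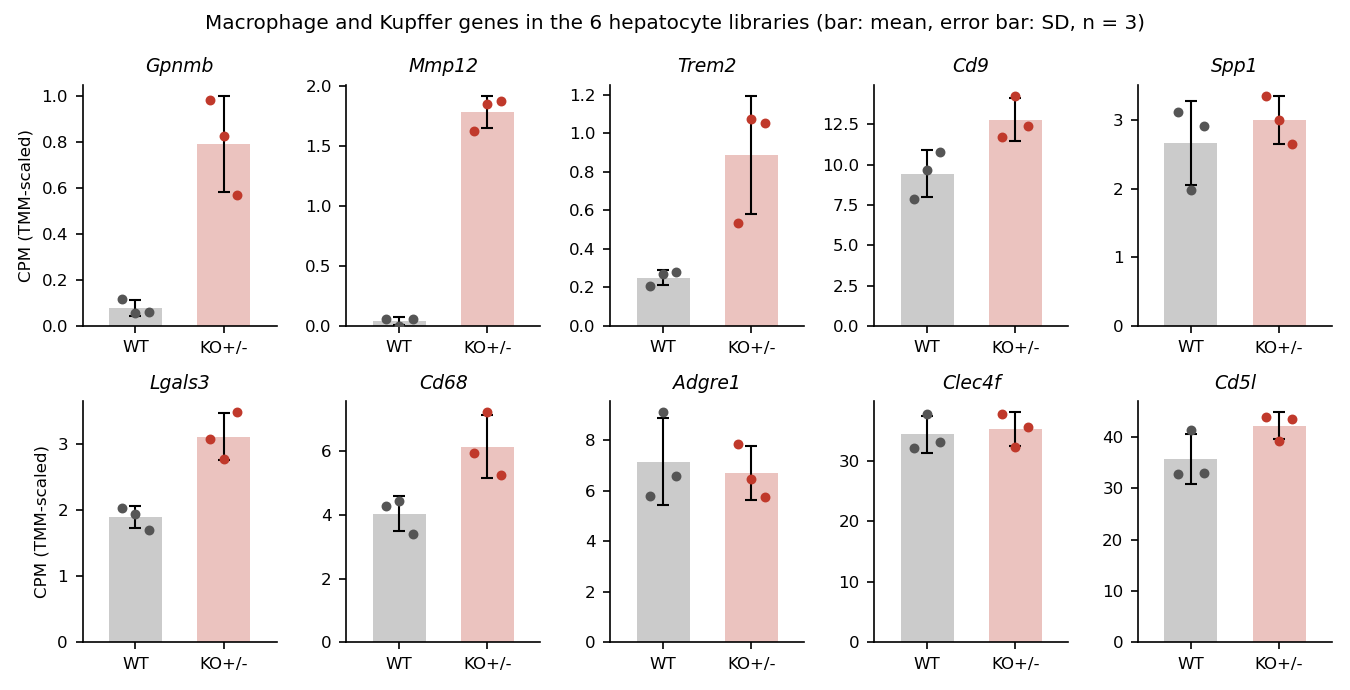
TMM-scaled CPM of the 10 genes (1 panel each, linear axes from 0) in the 3 WT and 3 S100a16KO+/- libraries. Points are libraries, bars are means and error bars are SD (n = 3); Gpnmb, Mmp12 and Trem2 stand well apart between genotypes, whereas Spp1, Adgre1, Clec4f and Cd5l overlap.

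Mmp12 (ENSMUSG00000049723) encodes macrophage elastase, a secreted protease that cuts elastin, and lies at chr9:7344381-7369499 on the plus strand. It read 4, 0 and 4 estimated counts in WT, against 113, 119 and 135 in S100a16KO+/-. At about 1 fragment or none per WT library the gene was at the floor, and the S100a16KO+/- libraries held 28.3 to 33.8 fragments each. Mean levels were 0.0390 ± 0.0338 and 1.79 ± 0.135 CPM, and the S100a16KO+/- mean was 10.3-fold the mean floor of the WT libraries. This ratio is a lower limit for the means and carries no counting error of the S100a16KO+/- libraries. With WT at the floor, only this lower limit is given, and it does not rank Mmp12 against Gpnmb below. Mmp1b overlaps Mmp12 on the other strand in GENCODE M21. Whether the counting used strand is not stated, and the part of Mmp1b in the Mmp12 counts was not tested.

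Gpnmb (ENSMUSG00000029816) encodes a transmembrane glycoprotein of lysosomes and the cell surface, and lies at chr6:49036546-49070929 on the plus strand. It read 8, 4 and 4 estimated counts in WT and 68, 53 and 41 in S100a16KO+/-. The WT libraries were again at the floor, and the lowest S100a16KO+/- library exceeded the highest WT library. Mean levels were 0.0775 ± 0.0344 and 0.792 ± 0.208 CPM, and the S100a16KO+/- mean was 4.55-fold the mean WT floor. As for Mmp12, this is a lower limit for the means only. The lowest S100a16KO+/- library, replicate 3, stood at 0.569 CPM.

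Trem2 (ENSMUSG00000023992) encodes the lipid-binding receptor that gives lipid-associated macrophages much of their programme, and lies at chr17:48346401-48354147 on the plus strand. It read 14, 19 and 19 estimated counts in WT and 37, 69 and 76 in S100a16KO+/-. WT libraries were just above the floor, and S100a16KO+/- replicate 1 was well below the other two of its group but above all WT libraries. The levels were 0.251 ± 0.0399 and 0.888 ± 0.306 CPM, and the log2 fold change was 1.81 (SE 0.45). The S100a16KO+/- libraries held 9.25 to 19 fragments of Trem2 each, so that counting error is a large share of its spread.

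Cd9 (ENSMUSG00000030342) encodes a tetraspanin that organises membrane complexes, lies at chr6:125460266-125494791 on the minus strand, and is made by many cell types besides macrophages. It read 538, 681 and 738 estimated counts in WT and 813, 917 and 895 in S100a16KO+/-. The groups did not overlap, and the gap between the highest WT library and the lowest S100a16KO+/- library was smaller than the range within WT. Levels of 9.45 ± 1.47 and 12.8 ± 1.31 CPM gave a log2 fold change of 0.44 (SE 0.12). Gm28809 and Gm26728 overlap Cd9 on the other strand in GENCODE M21. Gm28809 read at most 10 counts, and whether the counting used strand is not stated.

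Lgals3 (ENSMUSG00000050335, chr14:47367751-47386160, plus strand) encodes galectin-3, a secreted and cytosolic galactoside-binding lectin. Estimated counts were 139, 137 and 117 in WT and 214, 179 and 251 in S100a16KO+/-. Every S100a16KO+/- library was above every WT library. The levels were 1.9 ± 0.168 and 3.12 ± 0.351 CPM, with a log2 fold change of 0.72 (SE 0.19).

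Spp1 (ENSMUSG00000029304, chr5:104435118-104441050, plus strand) encodes osteopontin, a secreted phosphoprotein that bile duct cells make as well as macrophages. Estimated counts were 213, 139 and 199 in WT and 232, 193 and 191 in S100a16KO+/-. The groups overlapped, with WT replicate 1 above both S100a16KO+/- replicates 2 and 3. The levels of 2.67 ± 0.609 and 3.00 ± 0.348 CPM gave a log2 fold change of 0.17 (SE 0.21), which turned to -0.01 when WT replicate 2 was left out. Of the lipid-associated genes chosen, Spp1 was thus the 1 without a separation of the genotypes. The bile duct markers Krt19 and Epcam, which frame this value, were near the floor, with 27, 0 and 15 counts of Krt19 in WT and 48, 20 and 55 in S100a16KO+/-, and with 4 to 18 counts of Epcam per library. Their part in the Spp1 signal was not tested. Gm42793 overlaps Spp1 on the same strand and read at most 8 counts.

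Cd68 (ENSMUSG00000018774, chr11:69664213-69666153, minus strand) encodes a lysosomal glycoprotein of macrophages. Estimated counts were 292, 312 and 234 in WT and 412, 464 and 379 in S100a16KO+/-, without overlap. The levels were 4.04 ± 0.545 and 6.14 ± 0.993 CPM, with a log2 fold change of 0.60 (SE 0.16). Adgre1 (ENSMUSG00000004730, chr17:57358691-57483527, plus strand) encodes F4/80, the surface receptor most used to stain mouse macrophages. Its counts were 396, 641 and 450 in WT and 544, 417 and 414 in S100a16KO+/-, and the groups overlapped fully. The levels were 7.16 ± 1.73 and 6.70 ± 1.07 CPM, with a log2 fold change of -0.10 (SE 0.17) that turned to 0.11 with WT replicate 2 left out. The 2 general macrophage genes therefore moved differently, with Cd68 higher and Adgre1 level within its spread.

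Clec4f (ENSMUSG00000014542, chr6:83644542-83656187, minus strand) encodes a lectin that in mice is largely restricted to Kupffer cells. Its counts were 2197, 2661 and 2273 in WT and 2621, 2081 and 2568 in S100a16KO+/-. The levels of 34.4 ± 3.00 and 35.3 ± 2.74 CPM overlapped, and the log2 fold change was 0.04 (SE 0.08). Cd5l (ENSMUSG00000015854, chr3:87357881-87371073, plus strand) encodes a protein that Kupffer cells secrete into the blood. Its counts were 2240, 2913 and 2259 in WT and 3038, 2519 and 3129 in S100a16KO+/-. The levels were 35.7 ± 4.90 and 42.2 ± 2.58 CPM, with a log2 fold change of 0.24 (SE 0.09), and WT replicate 2 lay above S100a16KO+/- replicate 2.

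The median log2 fold change was 1.27 over the 6 lipid-associated genes and 0.14 over the other 4, against 0.01 over all 15957 genes that passed the filter. The 1.27 lies between Trem2 (1.81) and Lgals3 (0.72). Gpnmb and Mmp12 stay above Trem2 at their lower limits (2.19 and 3.36 on the log2 scale), so these limits could not change the median. Since the genes were chosen on these values, the medians describe the choice. Gpnmb, Mmp12 and Trem2 were also set against the Kupffer genes of the same library, where Gpnmb and Mmp12 are at the floor in WT. Their summed level was 0.586%, 0.413% and 0.596% of that of Clec4f and Cd5l in WT, against 3.85%, 5.24% and 4.42% in S100a16KO+/-. The sum of Clec4f and Cd5l was 65.0, 79.2 and 66.2 CPM in WT and 81.7, 71.6 and 79.1 CPM in S100a16KO+/-, so the denominator overlapped between genotypes. In all 6 libraries the summed level of the 3 genes was small beside that of Clec4f and Cd5l. The cells that the RNA of the 3 genes came from were not identified.

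**Figure D2:**
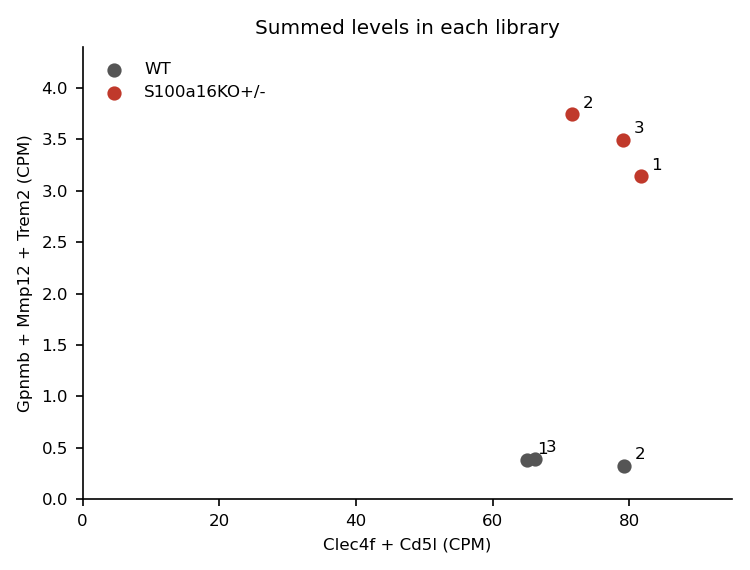
Summed TMM-scaled CPM of Gpnmb, Mmp12 and Trem2 (vertical axis) against that of Clec4f and Cd5l (horizontal axis), both linear from 0, with 1 point per library and its replicate number. The WT points lie between 0.327 and 0.395 CPM on the vertical axis and the S100a16KO+/- points between 3.15 and 3.75 CPM, over overlapping ranges of Clec4f and Cd5l.

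Levels of different genes were compared per length, as FPKM. In WT the order was Cd5l (15.7 ± 2.69 FPKM), Clec4f (12.5 ± 1.55), Cd9 (4.14 ± 0.785), Cd68 (2.86 ± 0.395), Adgre1 (1.98 ± 0.551), Spp1 (1.43 ± 0.284), Lgals3 (0.900 ± 0.0730), Trem2 (0.0435 ± 0.00901), Gpnmb (0.00891 ± 0.00431) and Mmp12 (0.00430 ± 0.00374). Neighbours whose libraries overlapped in WT were Cd5l and Clec4f, Cd68 and Adgre1, Adgre1 and Spp1, and Gpnmb and Mmp12. In S100a16KO+/- the first 7 genes kept this order and Mmp12 (0.221 ± 0.0187 FPKM) stood above Trem2 (0.158 ± 0.0547) and Gpnmb (0.104 ± 0.0278). There Adgre1 and Spp1, Spp1 and Lgals3, and Trem2 and Gpnmb overlapped. Mmp12 thus moved from last place to the head of the 3 low genes.

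The FPKM values rest on the union of all annotated exons of a gene. For 98.7% of 10524 well-covered genes the length implied by the count and the FPKM was within 2% of a fixed multiple of that union in GENCODE M21. This length exceeds that of the longest coding transcript 4.55-fold for Trem2 (4946 against 1088 bases), 2.01-fold for Mmp12 (7237 against 3607 bases) and 1.76-fold for Gpnmb (6514 against 3701 bases), and does not differ for Adgre1, Clec4f and Cd5l. Per kb of the longest coding transcript, Trem2 was at 0.231 ± 0.0367 CPM in WT and 0.816 ± 0.282 in S100a16KO+/-. On that scale Trem2 stood above Mmp12 (0.495 ± 0.0373) and Gpnmb (0.214 ± 0.0562) in S100a16KO+/-, with Trem2 and Mmp12 overlapping. The order of these 3 genes depended on the length used, whereas the ratio between genotypes did not.

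WT replicate 2 was the highest WT library for Cd68, Adgre1, Clec4f and Cd5l, and for none of the 6 lipid-associated genes. Among 18 other Kupffer genes WT replicate 2 was the highest of the 3 WT libraries for 9, among 24 other general macrophage genes for 13, and among 22 other lipid-associated genes for 10. The contrast between the chosen genes was thus not seen in the wider lists. A pattern over the 6 libraries is given as the root-mean-square difference of centred log2 CPM, which is small for genes that follow each other. Nearest to Gpnmb were Gm11843 (0.236), Hamp (0.268), which encodes the iron hormone hepcidin, and Gm49708 (0.299). Nearest to Mmp12 were S100a2 (0.588), Bhlha15 (0.604) and S100a3 (0.731), all with 0 counts in every WT library. Nearest to Cd9 were Gpx3 (0.0612), Lama4 (0.0633) and H2-Q5 (0.0641). Near to Spp1 were Rnf39 (0.0575) and Aven (0.0791), and nearest to Clec4f were Slc35a2 (0.0373), Ykt6 (0.0382) and Pias2 (0.0394).

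By the annotation in the table, 8 of the 10 genes are placed at the plasma membrane or in the extracellular region, and Lgals3 and Clec4f carry neither term. Gpnmb, Trem2, Cd9, Cd68, Adgre1 and Cd5l carry the term plasma membrane, as do 21.6% of annotated genes of the table. Mmp12, Trem2, Cd9, Spp1 and Cd5l carry extracellular region (7.31%). Mmp12, Spp1, Lgals3 and Cd5l carry cytoplasm (36.3%). Gpnmb, Cd9 and Spp1 carry integrin binding (0.752%) and cell adhesion (2.99%).

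The other listed genes of the lipid-associated programme were called in both directions. The list holds genes as abundant as Apoe (19899 ± 1104 CPM in WT), so its counts and median cannot be assigned to macrophages. Of 22 tested genes of a list of 24, 4 rose and 2 fell in S100a16KO+/- (adjusted p under 0.05 by edgeR's quasi-likelihood test with Benjamini-Hochberg adjustment over all tested genes), against 11.6% of all genes that rose and 11.2% that fell. Both counts were near these shares, and the median log2 fold change of the list was 0.09. Itgax, the integrin CD11c of dendritic cells and lipid-associated macrophages, rose from 0.360 ± 0.178 to 1.20 ± 0.177 CPM (log2 fold change 1.73, SE 0.40, adjusted p = 0.00636). Its counts were 22, 39 and 14 in WT and 69, 85 and 92 in S100a16KO+/-. Ctsd, the lysosomal protease cathepsin D, rose by less (0.25, SE 0.05, adjusted p = 0.00225), from 364 ± 6.70 to 433 ± 21 CPM.

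The other calls of that list were lost on leaving out single libraries, and Fabp5 and Msr1 are named after their values were seen. Fabp5, a fatty acid binding protein, rose (log2 fold change 0.77, adjusted p = 0.0364, and 0.159 without S100a16KO+/- replicate 3), as did the scavenger receptor Msr1 (0.47, adjusted p = 0.0244, and 0.119 without S100a16KO+/- replicate 1). The lipid droplet coat gene Plin2 fell (-0.20, adjusted p = 0.0352, and 0.132 without WT replicate 3), as did the cathepsin inhibitor Cstb (-0.36, adjusted p = 0.0198, and 0.102 without WT replicate 1). The lipase gene Lpl, the fatty acid transporter Cd36, the lysosomal acid lipase gene Lipa and the cathepsins Ctsb and Ctsl, named after their values were seen, did not pass the test, with log2 fold changes from -0.06 to 0.10. Of the list, 8 genes stood above Cd5l in CPM, Apoe, Ctsl and Ctsb among them, and the cells behind these levels were not identified.

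**Figure D3:**
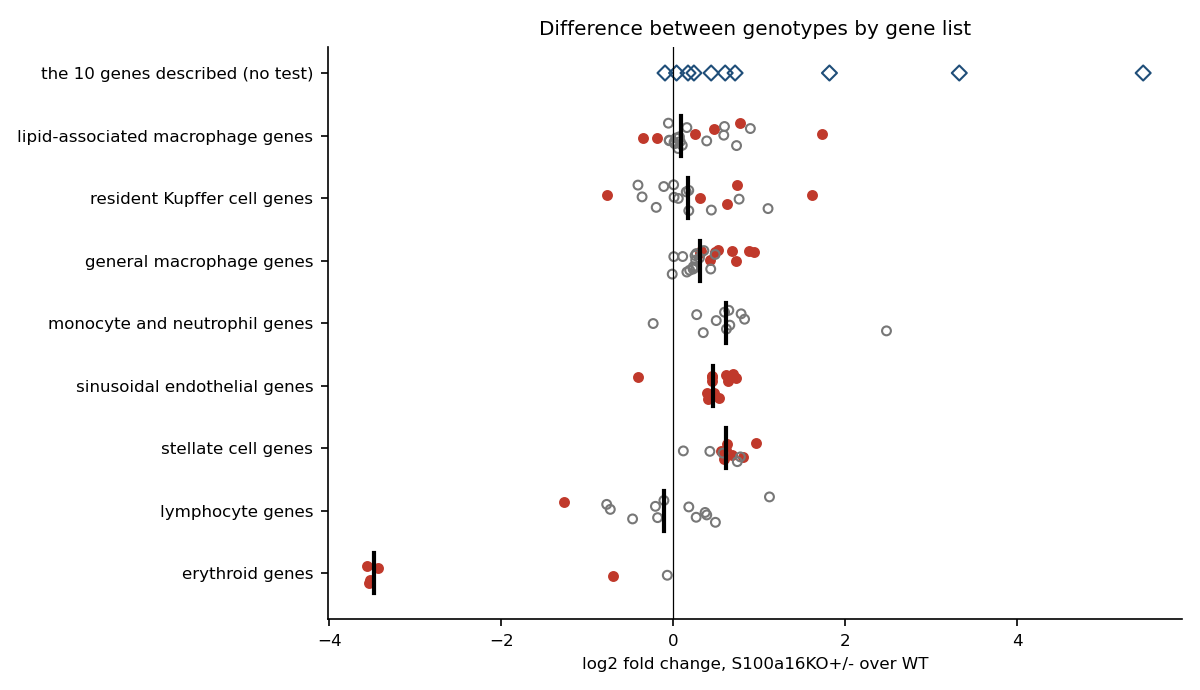
Log2 fold change of S100a16KO+/- over WT for the 10 genes (diamonds, not tested) and for the tested genes of 8 lists without those 10 (circles, filled where the adjusted p is under 0.05; black bars are list medians, and vertical offsets only separate points). Mmp12, Gpnmb and Trem2 lie at 5.46, 3.32 and 1.81, of which the first 2 rest on WT libraries at the floor; the medians of the lipid-associated, Kupffer and general macrophage lists lie between 0.09 and 0.30, and the erythroid genes fell.

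Of 15 tested genes of Trem2 signalling and shedding 2 rose, a share near the 11.6% of all genes that rose. Tyrobp, the adaptor through which Trem2 signals, read 168, 173 and 177 counts in WT and 250, 297 and 272 in S100a16KO+/-, and rose from 2.50 ± 0.0736 to 4.0 ± 0.543 CPM (log2 fold change 0.68, SE 0.17, adjusted p = 0.00979). Tyrobp also serves other receptors of myeloid cells. Clu, which encodes the lipoprotein clusterin, a Trem2 ligand made in bulk by hepatocytes, rose by 0.20 (adjusted p = 0.0462, and 0.166 without WT replicate 3). The kinase Syk (-0.03, SE 0.18), the phospholipase Plcg2 (-0.47, SE 0.31) and the sheddases Adam10 (0.11, SE 0.08) and Adam17 (0.24, SE 0.09), named after their values were seen, had adjusted p of 0.938, 0.311, 0.402 and 0.0845.

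Of 14 tested receptors and partners of osteopontin and galectin-3, 2 rose and 1 fell, near the shares of 11.6% and 11.2% over all genes. Itga9, an integrin subunit that binds osteopontin, rose from 9.23 ± 0.882 to 14.4 ± 0.606 CPM (log2 fold change 0.65, SE 0.10, adjusted p = 0.000269). Itga5, the fibronectin receptor subunit, fell from 31.3 ± 2.59 to 17.6 ± 0.530 CPM (-0.83, SE 0.08, adjusted p = 2.86e-06). Mfge8, a bridge between dying cells and integrins, rose by 0.42 (adjusted p = 0.0134, and 0.0662 without S100a16KO+/- replicate 1). Among 15 tested tetraspanins and galectins, relatives of Cd9 and Lgals3, 1 rose and 2 fell, also near those shares. Tspan4 rose by 0.20 (adjusted p = 0.0269, and 0.108 without WT replicate 1), Lgals4 fell by 0.32 on the log2 scale (adjusted p = 0.00367), and Lgals9 fell by 0.24 (adjusted p = 0.00986, and 0.0520 without S100a16KO+/- replicate 3).

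Mmp12 lies in a cluster of matrix metalloproteinase genes. Of 12 listed neighbours 7 were in the table and 4 passed the filter. Mmp13, a collagenase, read 0, 7 and 0 counts in WT, which is at the floor, and 30, 12 and 23 in S100a16KO+/- (adjusted p = 0.0491, and 0.192 without S100a16KO+/- replicate 1). No other neighbour passed the test, and over all genes 11.6% rose and 11.2% fell. DESeq2 gave no adjusted p for Mmp13 and did not call the other neighbours that passed the filter. In the edgeR fit 2 of the 4 had an unadjusted p under 0.05.

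Of 18 tested resident Kupffer genes, 4 rose and 1 fell, against 11.6% and 11.2% of all genes, with a median log2 fold change of 0.16. Id3, a regulator on which Kupffer cell identity depends and which other liver cells also express, rose from 10.4 ± 1.21 to 31.8 ± 1.5 CPM (1.61, SE 0.09, adjusted p = 1.52e-08). The scavenger receptor Marco read 667, 720 and 469 counts in WT and 1081, 1001 and 985 in S100a16KO+/-, and rose by 0.74 (SE 0.14, adjusted p = 0.00118). The lectin receptor Clec1b rose by 0.62 (SE 0.14, adjusted p = 0.00475), and the ficolin Fcna by 0.31 (adjusted p = 0.0316, and 0.176 without S100a16KO+/- replicate 1). Slc40a1, the iron exporter ferroportin, which hepatocytes share, fell from 154 ± 9.56 to 90.5 ± 7.78 CPM (-0.77, SE 0.07, adjusted p = 1.63e-06).

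Besides Marco, which rose, the other set markers of Kupffer cells did not pass the test. Timd4, the phosphatidylserine receptor of long-lived Kupffer cells, differed by 0.06 (SE 0.22, adjusted p = 0.891), and the complement receptor Vsig4 by 0.00 (SE 0.12, adjusted p = 0.989). Cd163, the haemoglobin scavenger receptor, differed by -0.36 (SE 0.16, adjusted p = 0.116). The Kupffer list summed to between 282 and 301 CPM in WT and between 251 and 272 CPM in S100a16KO+/-. Without Slc40a1, left out after its value was seen, the sums were 126 to 143 CPM and 161 to 174 CPM, so that this 1 gene set the direction of the sum. Of the sums without Slc40a1, Id3 alone held 10.4 ± 1.21 CPM in WT and 31.8 ± 1.5 CPM in S100a16KO+/-. These sums thus also lean on 1 gene, and a sum without both genes was not made.

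General macrophage genes were the most one-sided of the macrophage lists by count. Of 24 tested, 9 rose and 0 fell, against 11.6% and 11.2% of all genes, and 12 of the 24 had an unadjusted p under 0.05 in either direction and DESeq2 called 9. Among the largest rises without overlap were those of Cd14, the lipopolysaccharide co-receptor (0.94, SE 0.23, adjusted p = 0.00821), Irf8 (0.73, SE 0.17, adjusted p = 0.00542), Tyrobp (0.68) and the mannose receptor Mrc1 (0.51, SE 0.06, adjusted p = 4e-05), which sinusoidal endothelium also expresses. C1qb, a chain of complement C1q, rose by 0.43 (SE 0.10, adjusted p = 0.00476) and the lysozyme Lyz2 by 0.33 (SE 0.09, adjusted p = 0.0132, and 0.0750 without S100a16KO+/- replicate 1). The other C1q chains C1qa (0.26, adjusted p = 0.139) and C1qc (0.27, adjusted p = 0.104), Ptprc (0.23, adjusted p = 0.371) and Csf1r (0.00, adjusted p = 0.981) did not pass. The list summed to between 255 and 279 CPM in WT and between 344 and 363 CPM in S100a16KO+/-.

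Genes of monocytes and neutrophils, the cells that enter an injured liver, were low. Of 16 listed, 11 passed the filter and edgeR called 0, against 11.6% of all genes that rose and 11.2% that fell. Of the 11, 3 had an unadjusted p under 0.05 and DESeq2 called 0. The median log2 fold change was 0.62, and their sum was 8.97 to 10.3 CPM in WT and 12.8 to 14.1 CPM in S100a16KO+/-. Ccr2, the receptor by which monocytes follow Ccl2 and named after its values were seen, read 59, 35 and 39 counts in WT and 80, 67 and 82 in S100a16KO+/- (log2 fold change 0.79, SE 0.33, adjusted p = 0.109).

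Genes of other non-parenchymal cells also differed between the genotypes in the same libraries. Of 12 sinusoidal endothelial genes 11 rose and 1 (Lyve1) fell, against 11.6% and 11.2% of all genes. Their sum was 337 to 356 CPM in WT and 490 to 515 CPM in S100a16KO+/-. The largest changes without overlap were those of Fcgr2b (0.73), Clec4g (0.69), Stab1 (0.63), Kdr (0.61) and Tek (0.53). Of 12 stellate cell genes 7 rose and none fell, against the same shares over all genes. Of the 12, 8 had an unadjusted p under 0.05 in either direction and DESeq2 called 7. The sum was 68.1 to 74.4 CPM in WT and 112 to 127 CPM in S100a16KO+/-. Dcn (0.96) and Lrat (0.81) rose the most.

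Of 6 erythroid genes 5 fell and 0 rose, against 11.2% and 11.6% of all genes. They were the alpha and beta globin genes Hba-a2, Hba-a1, Hbb-bt and Hbb-bs (log2 fold changes from -3.57 to -3.43) and Alas2 (-0.70). The globin genes are near-identical copies that can share reads. The erythroid sum fell from between 215 and 252 CPM to between 23.7 and 26.3 CPM. The sum of the lymphocyte genes overlapped between genotypes, at 5.65 to 6.04 CPM in WT and 5.04 to 6.26 CPM in S100a16KO+/-. Of 7 dendritic cell genes only Clec9a passed, and it rose by 0.72 (adjusted p = 0.0387, and 0.151 without WT replicate 3). Of 7 tested bile duct genes only Sox9 passed, and it fell by 0.97 (adjusted p = 0.00643). A single call among 7 genes is near the shares over all genes. The 12 hepatocyte genes summed to 127901 to 140545 CPM in WT and 129162 to 142169 CPM in S100a16KO+/-. Of these 12, 3 rose (Pck1, Fgb and Fga) and 2 fell (Ttr and Cyp2e1), against 11.6% and 11.2% of all genes. The part of these cell types in the levels of Cd9, Lgals3 and Cd68 was not tested.

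**Figure D4:**
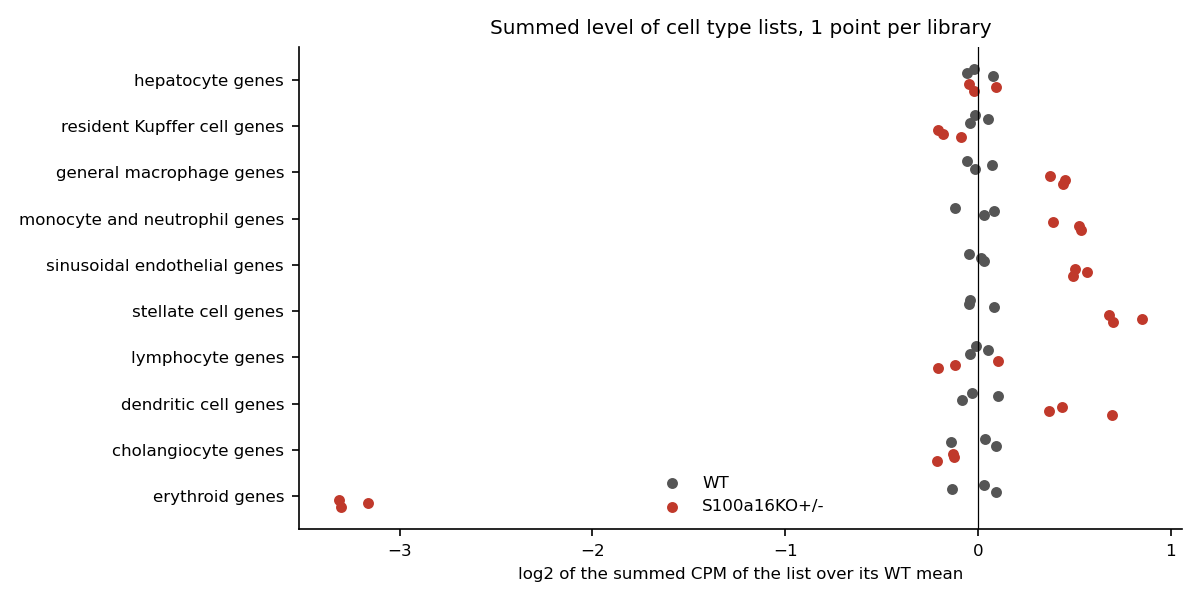
Summed CPM of each cell type list as log2 of its ratio to the WT mean, with 1 point per library (WT drawn above S100a16KO+/-). Endothelial, stellate, general macrophage, dendritic and monocyte sums lie above their WT libraries, the Kupffer sum lies slightly below, hepatocyte sums overlap and erythroid sums lie far below. Without Slc40a1, the Kupffer sums were 126 to 143 CPM in WT and 161 to 174 CPM in S100a16KO+/-. Of these, Id3 alone held 10.4 ± 1.21 CPM in WT and 31.8 ± 1.5 CPM in S100a16KO+/-.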

How the data were processed

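RNA of primary hepatocytes of 2 genotypes, all alcohol-fed, was compared between 3 WT and 3 S100a16KO+/- libraries, grouped by their labels. Libraries were poly(A)-selected, strand-specific and carried molecular identifiers. The authors deposited for each gene and library an estimated count, not scaled for library size, and an FPKM value, scaled by the authors for exon length and depth. The submitters' processing notes name mm10, cutadapt 1.9, HISAT2 2.0.4, UMI-tools, StringTie 1.3.4d, DESeq2 and edgeR, without roles. Whether duplicates were removed, and why 1 fragment is worth about 4 counts, is not given in the sources used here.

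Estimated counts, rounded to whole numbers, were fitted in edgeR 4.0.16 (R 4.3.3) with TMM scaling, filterByExpr and a robust quasi-likelihood fit without covariates, and two-sided p values were adjusted by Benjamini-Hochberg over 15957 tested genes. Simulated counts were used to check the fit. Depth was 67658095 to 71807834 counts, and the floor was 3 fragments, or 12 counts, per library. An exact permutation test of 3 against 3 libraries cannot go below 0.1, so none was run.

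The 10 genes and the 17 gene lists were chosen with earlier results of these data known. Text names all 10 genes, all called genes of a list with 5 or fewer calls, otherwise the 5 with the largest change without overlap, set markers, and the 3 genes nearest in pattern to 5 of the 10, except for a few genes that are not reported here. Positions are those of the table on mm10, and all 10 have the same start and end in GENCODE M21. Promoter sequences are from RefSeq (GRCm38.p6). Alternatives were a replicate block, median-ratio size factors, other filters, DESeq2 1.42.0, limma 3.58.1 (genes of mean FPKM 0.1 or more, on the log2 scale with a pseudocount of 1 or 0.1), counts divided by 4, the study's criterion and leaving out each library. Leaving out WT replicate 1 and S100a16KO+/- replicate 2 together was added after seeing the data.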

Additional observations from a re-analysis of the deposited data

How the results depend on the processing

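Over all genes 3643 passed an adjusted p of 0.05, with 11.6% of all genes that rose and 11.2% that fell. Of 75 tested genes of the 4 macrophage lists, each counted once, 17 rose and 3 fell. With limma on log2(FPKM + 1) and log2(FPKM + 0.1), 2316 and 2305 genes passed, and 11 macrophage genes rose with each. By an unadjusted p under 0.05 with a fold change of at least 2, 721 genes passed, with 4 macrophage genes higher and 0 lower. Leaving out 1 library gave 2734 to 3302 genes, 12 to 18 macrophage genes higher and 1 to 3 lower. The 1 came without S100a16KO+/- replicate 3. Without the pair of libraries with the lowest TMM factors 3412 genes passed, with 12 macrophage genes higher and 3 lower. The cause of these shifts was not tested.

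Same-numbered libraries did not deviate together (correlations from -0.0163 to 0.000454), and differently numbered ones gave values as small (-0.0147 to 0.0210). No pairing by number was thus read in the levels, and whether same-numbered libraries were prepared together is not known. The fit with a replicate block called 3082 genes, with 17 macrophage genes higher and 2 lower. Of 73 called list genes, 53 stayed called with each library left out, and none changed direction under any alternative. Gpnmb, Mmp12 and Trem2 hold few fragments. A filter at 1 CPM dropped all 3, division of the counts by 4 dropped Gpnmb and Trem2, and both limma fits dropped Gpnmb, so the median of the 6 genes was not computed there. On log2(FPKM + 1) the difference of Mmp12 was 0.28 and that of Trem2 0.15, since the pseudocount exceeds their levels. Cd9 fell to 0.24 without the pair of libraries above. The signs of Spp1, Adgre1 and Clec4f turned with single libraries left out.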

Other observations

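Of 15 tested macrophage growth factor, chemokine and cytokine genes, 6 rose in S100a16KO+/- and 0 fell, against 11.6% of all genes that rose and 11.2% that fell, with 8 at an unadjusted p under 0.05 in either direction and 6 called by DESeq2, and the median log2 fold change was 0.59. The summed level of the list overlapped, at 115 to 118 CPM in WT and 118 to 122 CPM in S100a16KO+/-. The anti-inflammatory and profibrotic cytokine gene Tgfb1 rose from 5.10 ± 0.600 to 9.41 ± 1.19 CPM (0.88, SE 0.14, adjusted p = 0.000263). Il1b, the inflammasome cytokine, read 104, 137 and 158 counts in WT and 229, 224 and 294 in S100a16KO+/- (0.91, SE 0.20, adjusted p = 0.00422). Ccl2, which draws monocytes, read 22, 15 and 19 counts in WT and 65, 41 and 56 in S100a16KO+/- (1.53, adjusted p = 0.0193, and 0.0848 without S100a16KO+/- replicate 1). Ccl4 rose by 1.75 (adjusted p = 0.0206, and 0.102 without S100a16KO+/- replicate 2). Cxcl16, a chemokine and scavenger receptor, rose by 0.68 (adjusted p = 0.00710). Ccl6, the remaining called gene, rose by 0.68 (adjusted p = 0.00291).

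Transcription factors and exporters that respond to lipid were called in both directions. Of 16 tested 4 rose and 4 fell, against 11.6% and 11.2% of all genes. The calls of Nr1h2 and Maf, which rose, and Rxra, which fell, are named after their values were seen. These 3 were lost on leaving out single libraries in the edgeR fit (adjusted p up to 0.123, 0.164 and 0.157). Bhlhe40 (-0.83, adjusted p = 4.64e-08), Pparg (-0.81, adjusted p = 0.00254), the fatty acid receptor, and the cholesterol exporter Abca1 (-0.34, adjusted p = 0.000345) fell, while the exporter Abcg1 (0.83, adjusted p = 0.000471) rose. Abca1 fell from 155 ± 2.22 to 122 ± 6.76 CPM and Abcg1 rose from 4.09 ± 0.288 to 7.28 ± 0.763 CPM, so that the partners in cholesterol export differed in direction. Of the 16 genes 5 stood above Cd5l in CPM, and the cells behind these changes were not identified.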
